A study of Mus musculus with 9 samples.

Results

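The 8 genes described here carry the intracellular part of canonical Wnt signalling: the Dishevelled genes Dvl1, Dvl2 and Dvl3, the scaffold genes Axin1 and Axin2, the kinase gene Gsk3b, Ctnnb1, which encodes beta-catenin, and Tcf7l2, which encodes a DNA-binding partner of beta-catenin. They were chosen by name, 8 of 21631 protein-coding genes on the autosomes and X, by a rule that uses no measured value. DNA methylation at CpGs was measured by whole-genome bisulfite sequencing of nucleus accumbens punches from male C57BL/6J mice, in 5 libraries labelled Control (numbers 2, 3, 4, 5 and 8) and 4 labelled Susceptible (numbers 2, 3, 6 and 7). The labels give 1 treatment text for every library: mice aged 8 weeks met an unfamiliar CD1 aggressor once a day for 10 days. What the Control mice went through apart from that text, and by which score mice were called Susceptible, cannot be read from the labels used here. No transgene is named, and each library is 1 sample with no stated pooling. A punch holds many cell types, so a level is an average over the cells in it. Nothing in the labels says that libraries of a group came from separate litters or batches, so each p measures the spread between these samples.

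In this pathway Wnt ligands bind Frizzled receptors with the co-receptors Lrp5 and Lrp6, and Dishevelled proteins then draw Axin to the membrane. Without a ligand, Axin holds Gsk3b against beta-catenin and marks it for destruction. With a ligand, beta-catenin builds up and acts with TCF and LEF factors in the nucleus, where Axin2 is a well-known target and feedback inhibitor. In the nucleus accumbens, Dishevelled, Gsk3b and beta-catenin have been studied in mice after social defeat for their part in susceptibility and resilience. CpG-rich gene starts are usually free of methylation, while the bodies of transcribed genes are usually methylated. The comparison of Control with Susceptible asks whether the methylation of these genes differs between mice with those labels.

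The start of 7 of the 8 genes is a listed RefSeq start. RefSeq promoter sequences of build GRCm38.p6 matched 9 promoters of these 7 genes, since Ctnnb1 and Tcf7l2 have more than 1 listed start. Each runs from 250 bases before the start to 50 after it and is printed 5′ to 3′ on the + strand. Capitals mark CpGs that the deposited files list, and lower case the rest, so each capital pair is a measured site. The first listed Ctnnb1 promoter (chr9:120933150-120933449) is shown because it is dense in CpGs, with 46 of them, more than 98.4% of the 32851 promoters of the same length. The Dvl3 promoter (chr16:20516736-20517035) is shown as the one with the lowest start window, and the Axin2 promoter (chr11:108920099-108920398) as that of the pathway's own target. Both Tcf7l2 promoters (chr19:55741560-55741859 and chr19:55895071-55895370) are shown because the tile of smallest p lies just after the second.
Ctnnb1: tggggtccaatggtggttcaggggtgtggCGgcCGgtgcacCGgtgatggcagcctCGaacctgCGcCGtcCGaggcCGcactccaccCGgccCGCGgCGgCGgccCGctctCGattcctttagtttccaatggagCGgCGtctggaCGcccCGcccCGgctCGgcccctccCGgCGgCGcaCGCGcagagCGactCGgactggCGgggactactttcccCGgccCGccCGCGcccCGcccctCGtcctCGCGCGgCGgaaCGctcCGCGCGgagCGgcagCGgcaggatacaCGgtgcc
Dvl3: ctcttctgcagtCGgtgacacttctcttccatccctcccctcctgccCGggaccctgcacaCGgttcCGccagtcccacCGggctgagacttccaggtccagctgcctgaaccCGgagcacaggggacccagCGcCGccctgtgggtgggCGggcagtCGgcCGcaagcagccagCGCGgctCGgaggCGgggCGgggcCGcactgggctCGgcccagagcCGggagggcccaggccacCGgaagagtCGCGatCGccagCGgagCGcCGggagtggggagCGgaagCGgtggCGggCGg
Axin2: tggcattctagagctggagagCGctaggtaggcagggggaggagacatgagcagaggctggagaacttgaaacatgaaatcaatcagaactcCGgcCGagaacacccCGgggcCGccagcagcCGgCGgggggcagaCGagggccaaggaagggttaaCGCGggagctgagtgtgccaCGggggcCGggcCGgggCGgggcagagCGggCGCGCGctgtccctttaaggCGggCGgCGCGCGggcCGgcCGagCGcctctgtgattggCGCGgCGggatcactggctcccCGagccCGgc
Tcf7l2 first start: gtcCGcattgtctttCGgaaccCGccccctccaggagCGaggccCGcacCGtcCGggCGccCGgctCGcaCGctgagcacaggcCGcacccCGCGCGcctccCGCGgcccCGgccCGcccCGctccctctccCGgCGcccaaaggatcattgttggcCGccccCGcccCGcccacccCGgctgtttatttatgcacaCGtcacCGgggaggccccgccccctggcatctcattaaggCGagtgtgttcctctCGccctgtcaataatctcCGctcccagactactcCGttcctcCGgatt
Tcf7l2 second start: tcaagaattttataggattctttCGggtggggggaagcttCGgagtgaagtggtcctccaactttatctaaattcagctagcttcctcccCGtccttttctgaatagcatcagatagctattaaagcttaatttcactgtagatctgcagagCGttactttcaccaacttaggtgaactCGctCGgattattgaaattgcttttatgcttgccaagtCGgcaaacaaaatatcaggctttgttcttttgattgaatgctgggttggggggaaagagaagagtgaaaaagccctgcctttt
All 46 CpGs of the Ctnnb1 sequence, all 30 of Dvl3, all 31 of Axin2, 33 of 34 at the first Tcf7l2 start and all 7 at the second were listed in at least 1 library. The 2 Tcf7l2 promoters differ in make-up, with a GC content of 70% at the first and 42% at the second. Over the 300 bases, the level was 0 to 1.43% across the 9 libraries in Dvl3, 0.536 to 5.63% in Ctnnb1, 0.162 to 7.46% in Axin2 and 4.37 to 30% at the second Tcf7l2 start, where a library had only 30 to 229 calls. The first Tcf7l2 sequence had listed CpGs in 8 of the 9 libraries, with levels of 0.974 to 11.2%. The core letters of the TCF site, CTTTGA or CTTTGT on either strand, were searched in all promoters. CTTTGA occurred in 16.0% of promoters and CTTTGT in 18.7%. Among the 9 member promoters, Gsk3b had 1 CTTTGA and the second Tcf7l2 promoter had 1 CTTTGT, and the others had neither in this window.

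Depth and call quality differed between libraries. A call is 1 read of a cytosine as methylated or not, and a level is the percent of calls read as methylated, summed over the CpGs of a window. The libraries held 313475624 to 570984634 listed calls, fewest in Control 5, and autosomal levels of 74.5 to 77.1%. The strands of a CpG disagreed most within Control 5 and Control 8: the squared difference was 18.4 and 19.7 times that of binomial sampling, against 2.38 to 6.10 times in the other 7 libraries. Values without these 2 libraries are therefore given wherever they alter a statement, an alternative chosen after seeing the data. Striatal projection neuron markers (10 genes) had gene body levels of 56.6 to 62.6% in Control and 58.1 to 68.3% in Susceptible, highest in Susceptible 6 and Susceptible 7. Astrocyte markers (6 genes) had 66.0 to 70.0% and 62.9 to 67.5%, and the cortical neuron, oligodendrocyte and microglia lists overlapped likewise, with exact permutation p-values of 0.0952 to 0.722 over the 5 lists (two-sided, n = 5 and 4, unadjusted). Susceptible 7 was the lowest of the 9 libraries in the cortical neuron (47.0%), oligodendrocyte (64.0%), astrocyte (62.9%) and microglia (79.7%) lists. Methylation of marker genes does not measure their expression, so the labelled tissue could not be checked directly. The part of cell make-up in the results below was not tested.

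The start windows, 1 kb on each side of the start, were low in the 7 genes with a listed start, and no difference between the groups passed the test. Over all 19383 start windows tested, 0% had an adjusted p under 0.05, 4.85% an unadjusted p under 0.05 and 1.92% groups that did not overlap. Of the 8 members, 0 passed either threshold and in 0 did the groups stay apart. Leaving out 1 library altered the unadjusted count: Dvl1 passed without Control 5 (p = 0.00312), where its groups stayed apart, and Ctnnb1 (p = 0.0267) and Gsk3b (p = 0.0392) passed without Control 4, all in the quasi-binomial model. Of all start windows, 5.80% passed without Control 5 and 5.91% without Control 4. For groups that stayed apart without Control 5, no share over all start windows stands beside the Dvl1 result. The adjusted p-values of the quasi-binomial model, moderated as in limma, were 0.936 to 0.989. Mean levels over the 9 libraries ran from 1.06% in Dvl3 through Gsk3b (1.19%), Axin2 (3.21%), Dvl1 (6.44%), Ctnnb1 (7.93%), Dvl2 (8.65%) and Tcf7l2 (9.44%) to Axin1 (88.1%). Neighbours in that order had overlapping ranges throughout, apart from Tcf7l2 and Axin1. Axin2 lay above Gsk3b in 9 of 9 libraries, whereas Dvl1 against Ctnnb1 and Dvl2 against Tcf7l2 kept the order in only 5 of 9.

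**Figure D1:**
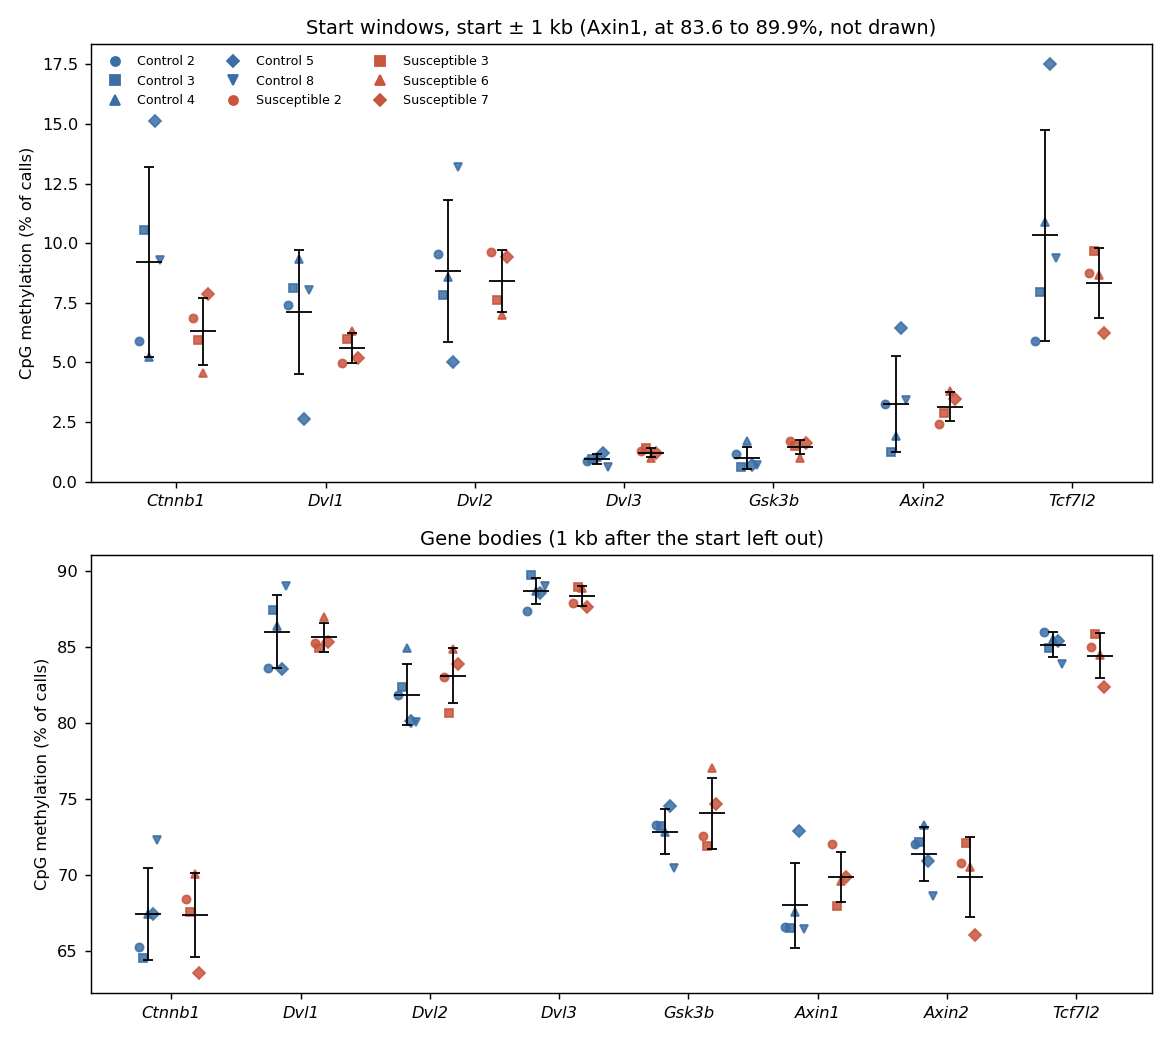
Percent of CpG calls methylated (y axis) in the start windows of 7 genes (upper panel, axis from 0) and in 8 gene bodies (lower panel, axis not from 0), with 1 point per library, blue for Control and red for Susceptible. Horizontal bars are group means and whiskers SD. Control 5 is the lowest Control library at Dvl1 (2.61%) and the highest at Ctnnb1 (15.1%), Axin2 (6.45%) and Tcf7l2 (17.5%).

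Among the Dishevelled genes, whose proteins pass the signal from receptor to Axin, Dvl1 read 7.40, 8.12, 9.35, 2.61 and 8.02% in Control 2, 3, 4, 5 and 8, while Susceptible 2, 3, 6 and 7 read 4.97, 5.97, 6.32 and 5.20%. Control 5 lay below every other library, and the other 4 Control libraries lay above every Susceptible library. The difference, Susceptible minus Control, was -1.49 percentage points (SE 1.21, adjusted p = 0.938 in the quasi-binomial model). Without Control 5 and Control 8 it was -2.68 percentage points, with an unadjusted p of 0.00452 and an adjusted p of 0.866 in the same model. Dvl2 had means of 8.83% ± 2.96 (SD, n = 5) over the Control libraries against 8.41% ± 1.31 (SD, n = 4) over the Susceptible ones. Its Control libraries ranged from 5.01% in Control 5 to 13.2% in Control 8, and the Susceptible libraries lay within that range. The sign of the Dvl2 difference, -0.421 percentage points, turned with 500 bp (0.460) or 2 kb (6.96) on each side and without Control 8 (0.666) or Susceptible 6 (0.0525). Dvl3 had 0.933% ± 0.212 (SD, n = 5) against 1.22% ± 0.177 (SD, n = 4), all libraries between 0.627 and 1.40%. The start of the antisense-strand lncRNA gene Gm16618 lies 794 bp after that of Dvl3, inside the same low window.

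In Dvl1 and Dvl2 most methylated calls of the start window came from few upstream CpGs. In Dvl1, 8 of 145 listed CpGs had a mean level over 50%, between 991 and 638 bp before the start, and held 77.6% of the methylated calls. In Dvl2 the count was 10 of 80, between 949 and 390 bp before the start, with 80.6% of methylated calls. In Ctnnb1, 5 of 179 such CpGs held 54.1%, and in Tcf7l2, 6 of 104 held 55.8%. Axin2 had 2 of 152 such CpGs, with 3.58% of its methylated calls, and Dvl3 (92 CpGs) and Gsk3b (175 CpGs) had 0. The median CpG of these 7 windows read between 0.357% in Dvl2 and 1.77% in Tcf7l2. Which CpGs were listed differed between libraries. Over only the CpGs listed in all 9, the differences at the starts were -0.0566 percentage points in Dvl1, 0.777 in Dvl2 and -3.01 in Ctnnb1, where all listed CpGs gave -1.49, -0.421 and -2.91.

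Axin1 and Axin2 encode the scaffold of the beta-catenin destruction complex. For Axin1 the CpG-richer end of the gene (GRCm38 position 26131217 on chromosome 17) stood in for a listed start. Whether a transcript starts there was not tested. That window was methylated in every library, at 88.8% ± 0.834 (SD, n = 5) over the Control libraries against 87.3% ± 2.65 (SD, n = 4) over the Susceptible ones. All 34 CpGs there had mean levels over 50%. The low stretch of Axin1 lay further inside: the tiles whose middles are 7283 and 8283 bp after that end read 3.17% and 2.80% over the 9 libraries, on 921 to 2084 calls a library. The start of Gm46600, an lncRNA gene on the - strand, falls in the first of them. The second read 2.04% ± 1.62 (SD, n = 5) over the Control libraries against 3.75% ± 1.12 (SD, n = 4) over the Susceptible ones, with overlapping groups and an adjusted p of 0.997 in the quasi-binomial model.

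At the start of Axin2 the libraries read 3.27, 1.25, 1.92, 6.45 and 3.44% in Control 2, 3, 4, 5 and 8, while Susceptible 2, 3, 6 and 7 read 2.40, 2.90, 3.78 and 3.47%. The Susceptible values lay inside the Control range, and the difference was -0.125 percentage points (SE 0.946). It was 0.994 percentage points, of the other sign, without Control 5 and Control 8. The gene's annotated bounds begin at position 108917828, before this start, and a second low stretch lay there. Bins of 500 bp centred 2750 and 2250 bp before the start read 8.75% and 7.82%, between bins at 81.8% and 86.5%. The first, with 6 CpGs, had 4.20% ± 5.32 (SD, n = 5) over the Control libraries and 14.4% ± 6.09 (SD, n = 4) over the Susceptible ones. The second, with 7 CpGs, had 5.86% ± 2.49 (SD, n = 5) and 10.3% ± 3.29 (SD, n = 4). The bins were not tested. The fixed 1-kb tile over this second low stretch also takes in part of the methylated flank, so its level mixes both. This tile read 28.7, 21.7, 36.8, 13.5 and 6.17% in Control 2, 3, 4, 5 and 8. In it Susceptible 2, 3, 6 and 7 read 33.7, 27.6, 29.0 and 30%. Control 5 and Control 8 were the lowest there and the other 3 Control libraries bracketed the Susceptible ones. This tile was picked out after its values were seen.

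Gsk3b encodes the kinase that phosphorylates beta-catenin in the Axin complex. Its start window read 1.15, 0.629, 1.72, 0.714 and 0.690% in Control 2, 3, 4, 5 and 8, while Susceptible 2, 3, 6 and 7 read 1.70, 1.49, 1.01 and 1.61%. The groups overlapped, with a difference of 0.472 percentage points (SE 0.258, adjusted p = 0.936 in the quasi-binomial model). Gsk3b also had the longest low stretch. Measured from the start outwards to 3 successive CpGs that each read 50% or more, it was 8961 bp in the median library (6502 to 11151 bp). The same measure gave 1852 to 4844 bp in the median library for Dvl1, Dvl2, Dvl3, Ctnnb1, Axin2 and Tcf7l2. The start of BC031361, an lncRNA gene on the - strand, lies 259 bp inside Gsk3b.

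Ctnnb1 encodes beta-catenin, the protein that carries the signal into the nucleus, and its start had the largest difference between means of the 8 with all libraries; without Control 5 and Control 8 that of Dvl1 was the largest. The libraries read 5.92, 10.5, 5.23, 15.1 and 9.30% in Control 2, 3, 4, 5 and 8, while Susceptible 2, 3, 6 and 7 read 6.88, 5.94, 4.55 and 7.87%. Control 3, 5 and 8 lay above all Susceptible libraries, and Control 2 and 4 among them. The difference was -2.91 percentage points (SE 1.91, adjusted p = 0.936 in the quasi-binomial model), and it was -0.920 percentage points without Control 5 and Control 8. It was -6.14 where each CpG needed 20 calls and -0.510 with 500 bp on each side of the start. Tcf7l2 read 5.88, 7.95, 10.9, 17.5 and 9.39% in Control 2, 3, 4, 5 and 8, while Susceptible 2, 3, 6 and 7 read 8.75, 9.66, 8.68 and 6.22%. Its difference was -2.003 percentage points (SE 2.11), with Control 5 alone far above the rest, and 0.0775 without Control 5 and Control 8.

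Control 5 was the lowest or highest of the 9 libraries at 5 of the 8 starts. The Control SD was larger than the Susceptible SD at 7 of the 8 starts, and at 79.5% of all start windows tested. Without Control 5 and Control 8 it was larger at 5 of 8 starts and at 57.2% of all. The 500-bp profiles around the starts show the low stretch of each gene and its edges.

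**Figure D2:**
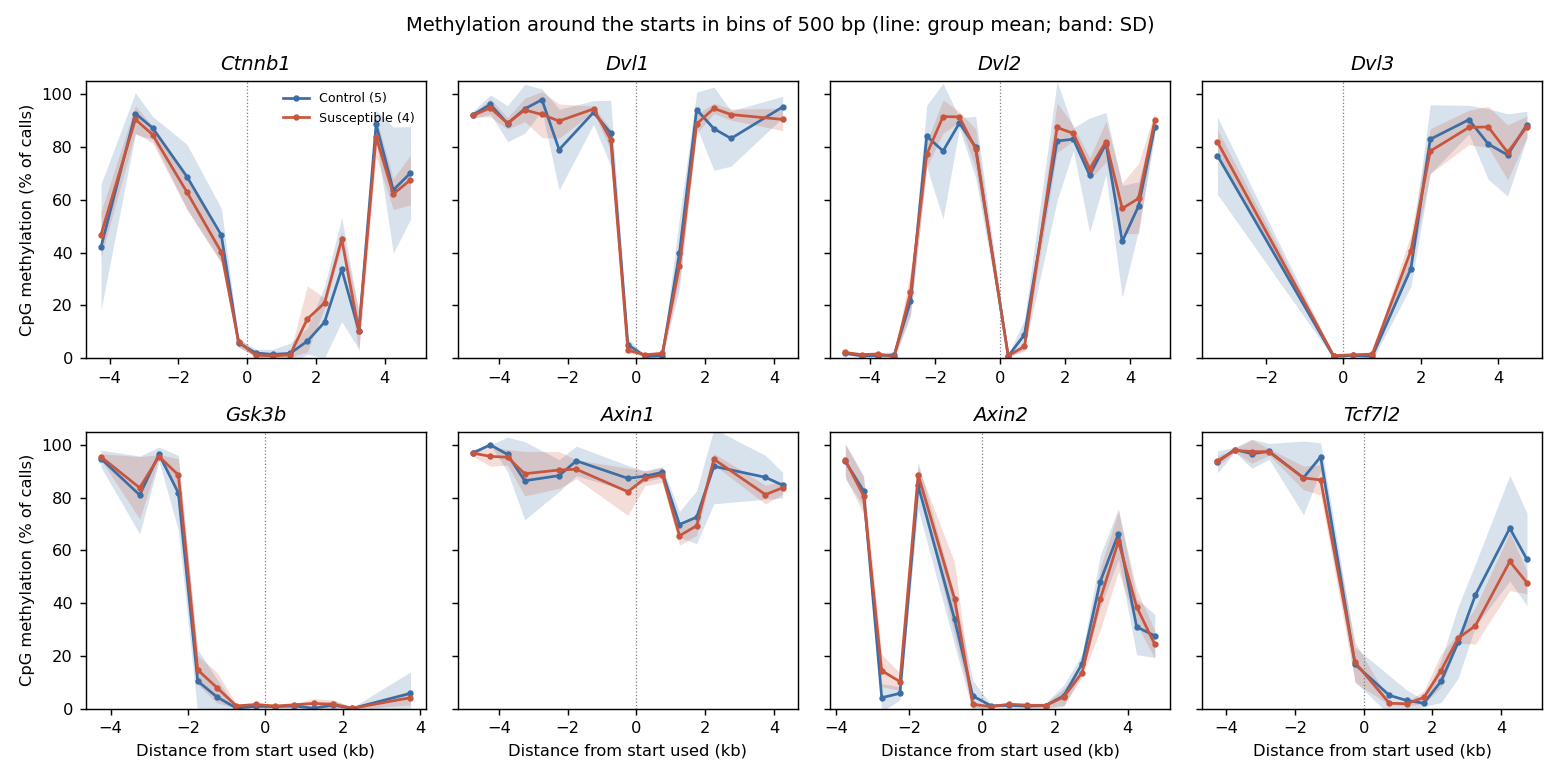
Percent of CpG calls methylated (y axis) by distance in kb from the start used (x axis, bins of 500 bp, bins without calls in every library left out), for each of the 8 genes. Lines are group means and bands SD, blue for Control (5) and red for Susceptible (4); in 7 genes both groups fall to low levels near the start, in Tcf7l2 to 16.8% and 17.6% in the bin before it and to a few percent after it, while the Axin1 window stays methylated.

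The length of the low stretch was compared between groups with unadjusted exact permutation tests for 8 genes, of which Axin1 is not read, since its window was methylated and the measure there is the spacing of CpGs. In Dvl2 it was 1697, 1939, 2382, 2103 and 2523 bp in Control 2, 3, 4, 5 and 8, while Susceptible 2, 3, 6 and 7 had 1588, 1588, 1720 and 1852 bp. Control 2 lay among the Susceptible libraries and the other 4 above them. The means were 2129 bp ± 333 (SD, n = 5) and 1687 bp ± 126.4 (SD, n = 4), with an exact two-sided permutation p of 0.0476. The p rose to 0.0714 to 0.107 with any single library left out other than Control 2. It rose to 0.341 where 30% replaced 50% as the level that ends the stretch. Without Control 5 and Control 8, Control 2 still lay among the Susceptible libraries, with Control 3 and 4 above them. Control 5 and Control 8 list the fewest cytosines, 13446563 and 16088027 against 18941987 to 22631489 in the others. The part of this in the lengths was not tested. Ctnnb1, Dvl1, Dvl3, Gsk3b, Axin2 and Tcf7l2 had exact permutation p-values from 0.103 (Dvl3) to 0.952 (Tcf7l2).

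In Ctnnb1 the stretch depended on that level. With 50% it was 5501 bp ± 958 (SD, n = 5) over the Control libraries against 4965 bp ± 324 (SD, n = 4) over the Susceptible ones (exact permutation p = 0.413). Control 5 (6628 bp) and Control 8 (6470 bp) had the longest, and without them the difference, Susceptible minus Control, was 162 bp in place of a negative value. With 30% it was 4783, 4441, 4642, 4513 and 4432 bp in Control 2, 3, 4, 5 and 8, while Susceptible 2, 3, 6 and 7 had 3279, 3279, 3279 and 3295 bp. The groups did not overlap, and the exact permutation p of 0.00794 is the smallest that 5 against 4 libraries can give. In Susceptible 2, 3 and 6 the stretch ended at 4 neighbouring CpGs that lie 2534 to 2586 bp after the start. In Susceptible 7, with 3295 bp, it did not end at these CpGs. At the first of the 4 CpGs the 5 Control libraries ranged from 0 to 100%. The 3 Susceptible libraries that list it ranged from 40.5 to 50%, on 12 to 42 calls a library over both groups. At the last, listed in 4 libraries of each group, the ranges were 0 to 55.6% and 38.3 to 62.5%. The 1-kb tile over these CpGs read 31.3, 21.6, 23.1, 6.74 and 1.43% in Control 2, 3, 4, 5 and 8, while Susceptible 2, 3, 6 and 7 read 24.5, 23.2, 30.1 and 24.5%, and the groups overlapped. The 11 CpGs between 3000 and 3500 bp after the start read 10.3% and 10.2% in the group means, and those of the next 500 bp 88.6% and 83.8%. Dvl3 had 3411 bp ± 416 (SD, n = 5) and 2800 bp ± 311 (SD, n = 4) with 30% (exact permutation p = 0.0317). At that level the exact permutation p was 0.794 in Dvl1, 0.778 in Gsk3b, 0.563 in Tcf7l2 and 0.0952 in Axin2, whose stretch was 420 bp longer in Susceptible. The measure was not computed for other genes, so no share over all genes stands beside these values.

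Gene bodies were methylated in all 8 genes, and no difference passed the test. Over all 18860 gene bodies tested, 0% had an adjusted p under 0.05, 3.83% an unadjusted p under 0.05 and 1.44% groups that did not overlap, and for the 8 members each count was 0. Without Control 5 the Axin1 body passed the unadjusted threshold and its groups stayed apart, where 4.29% of all bodies passed. For groups that stayed apart, no share over all bodies in that setting stands beside it. The order of the mean levels was Ctnnb1 (67.4%), Axin1 (68.9%), Axin2 (70.7%), Gsk3b (73.4%), Dvl2 (82.4%), Tcf7l2 (84.8%), Dvl1 (85.8%) and Dvl3 (88.5%). Among neighbours in that order, only Gsk3b and Dvl2 had ranges over libraries that stayed apart, 70.5 to 77.1% against 80.1 to 84.9%. Ctnnb1 had 67.4% ± 3.03 (SD, n = 5) over the Control libraries against 67.4% ± 2.76 (SD, n = 4) over the Susceptible ones, a difference of -0.0237 percentage points (SE 1.93), which was 1.62 without Control 5 and Control 8. The body with the largest difference was that of Axin1, which takes in the 2 low tiles described above. It read 66.6, 66.5, 67.6, 72.9 and 66.4% in Control 2, 3, 4, 5 and 8, while Susceptible 2, 3, 6 and 7 read 72.0, 68.0, 69.6 and 69.9%. Control 5 was the highest library and the other 4 Control libraries were below all Susceptible ones. The difference was 1.86 percentage points (SE 1.497) and 2.97 without Control 5 and Control 8, with an adjusted p of 0.99996 for the first in the quasi-binomial model. Without Control 5 alone it was 3.09, with an unadjusted p of 0.00709 and an adjusted p of 0.988 in that model. Of the 28 tested tiles of Axin1, 0 passed the unadjusted threshold, where 4.38% of all tiles did. Its tiles inside the gene and outside the start window had a median level of 92.9%. A body level is summed over calls, so it also depends on the share of calls that fall in the 2 low tiles. Each of these held 921 to 2084 calls a library, where the whole Axin1 body held 9221 to 16605. The part of that share in the Axin1 level and difference was not tested. In the other 7 bodies the difference lay between -1.54 percentage points (Axin2, SE 1.54) and 1.25 (Dvl2, SE 1.26). With 1 library left out, it ranged from -2.28 to -0.269 in Axin2 and from 0.662 to 2.06 in Dvl2. Among all tested genes, 12.6% had a lower body level than Ctnnb1 and 74.4% a lower one than Dvl3.

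The body of Tcf7l2 held the most calls, 57280 to 109048 a library, and had the largest dispersion of the 8, a measure that rises with calls. The SD of its level between libraries was 1.14 percentage points, and 18.5% of all tested genes had a smaller one. The body read 83.9 to 86.0% in Control and 82.4 to 85.9% in Susceptible, lowest in Susceptible 7. Of 260 genes with at least as many calls, the body levels most like it over the 9 libraries were those of Tbc1d22a (Pearson r = 0.887), Pard3b (0.880) and Septin9 (0.868). The 9 points share library depth and library-wide level, so these values describe the pattern only.

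The 537 tiles of 1 kb over the 8 genes and their flanks gave the finer view, of which 380 had enough calls in every library to be tested. Over the genome 1041809 tiles were tested, with 0% at an adjusted p under 0.05, 4.38% at an unadjusted p under 0.05 and 1.56% with groups that did not overlap. Of the member tiles, 0 passed the adjusted threshold, 15 (3.95%) the unadjusted one, with 8 higher and 7 lower in Susceptible, and 5 (1.32%) had groups that did not overlap. These shares are near those of the genome. The median absolute difference was 2.04 percentage points in member tiles and 2.31 over all tiles. Tcf7l2 had 7 of the 15 tiles, 5 of them lower, from 181 tested (3.87%). Gsk3b had 4, all higher, from 67 tested (5.97%). Axin2 had 2 from 36 tested (5.56%) and Dvl1 2 from 14 (14.3%).

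**Figure D3:**
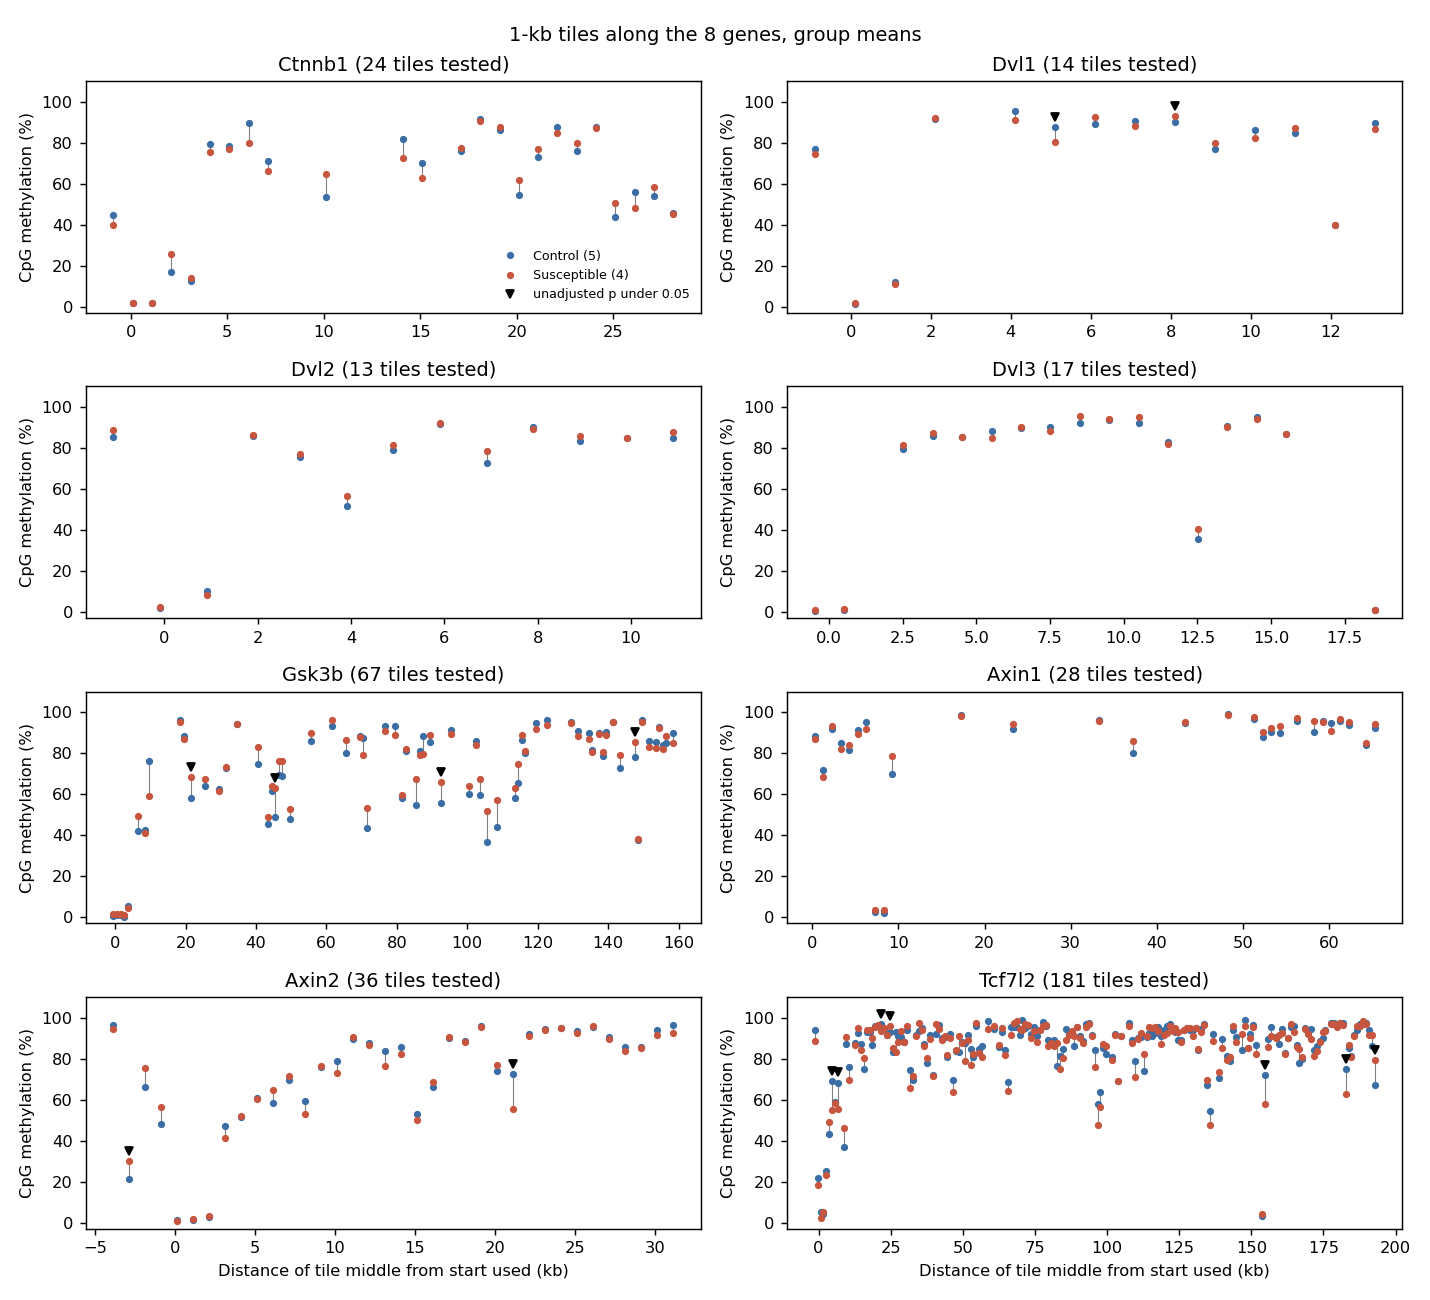
Percent of CpG calls methylated (y axis) in 1-kb tiles by distance in kb from the start used (x axis), 1 panel per gene. Blue and red points are Control (5) and Susceptible (4) means joined by a grey line, and black triangles mark the 15 tiles with an unadjusted p under 0.05, none of which passed adjustment.

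The tile of smallest p lay in Tcf7l2, just after its second listed start, which is 153511 bp after the first and within the gene's bounds. Over chr19:55896001-55897000 the libraries read 70.0, 74.2, 65.1, 77.4 and 72.3% in Control 2, 3, 4, 5 and 8, while Susceptible 2, 3, 6 and 7 read 61.2, 61.5, 57.6 and 50.9%. Every Susceptible library lay below every Control library. The difference was -14.0 percentage points (SE 3.22), with an unadjusted p of 0.00172 and an adjusted p of 0.997 in the quasi-binomial model, moderated as in limma. It was -15.7 to -11.7 with any single library left out and -12.0 without Control 5 and Control 8. Depth was 234 to 574 calls and 9 to 15 CpGs a library. All 15 CpGs of the tile were listed in at least 3 libraries of each group, and at 1 of them the groups did not overlap.

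The tile before it, which holds the second start printed above, stayed low in both groups, at 3.29% ± 1.87 (SD, n = 5) and 4.43% ± 1.79 (SD, n = 4). The window of 1 kb on each side of the second start read 9.94% ± 2.25 (SD, n = 5) and 12.5% ± 2.13 (SD, n = 4). On the upstream flank, the tile at 55894001 had 56.4% ± 11.7 (SD, n = 5) and 61.3% ± 3.48 (SD, n = 4), on 2 to 5 CpGs a library, too few for the test, with overlapping groups. The tile after the one of smallest p had 89.5% ± 7.69 (SD, n = 5) and 85.8% ± 7.06 (SD, n = 4), also overlapping.

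**Figure D4:**
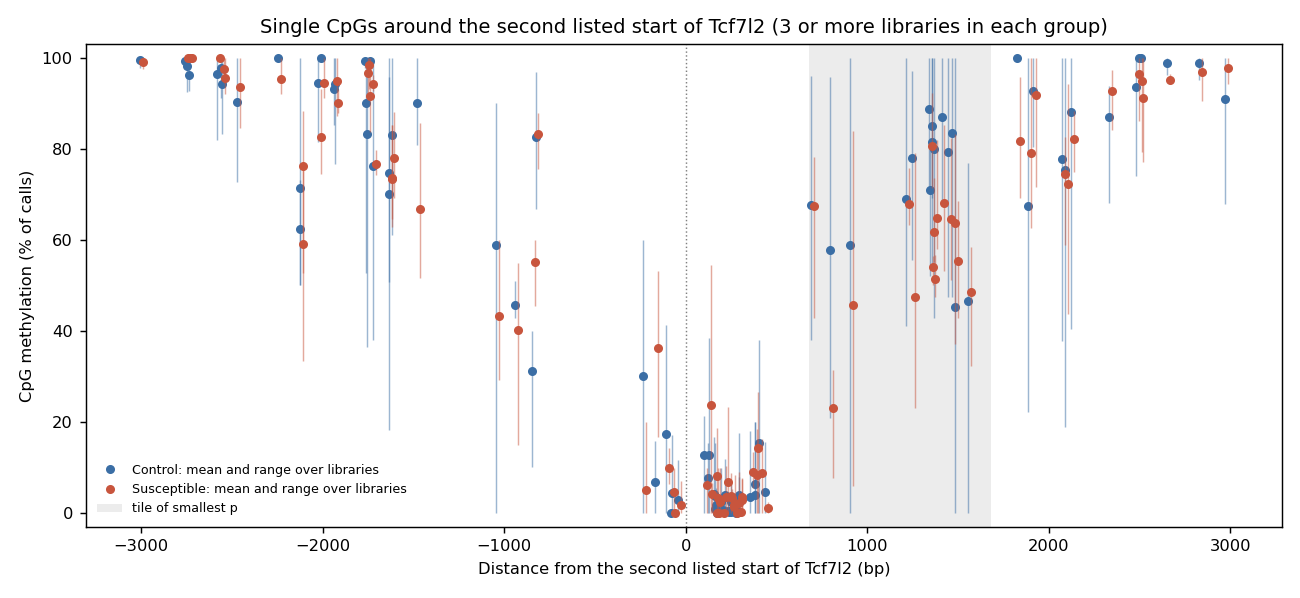
Percent of CpG calls methylated (y axis) at single CpGs by distance in bp from the second listed Tcf7l2 start (x axis), for CpGs listed in at least 3 libraries of each group; points are means and lines ranges over libraries, blue for Control and red for Susceptible. Grey shading marks the tile of smallest p, where the groups overlapped at 14 of 15 CpGs.

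Of the other tiles among the 5 of smallest p, 2 also lay in Tcf7l2 and were lower in Susceptible. The tile at chr19:55748001-55749000, 6690 bp after the first start, had 68.3% ± 5.39 (SD, n = 5) and 55.6% ± 9.18 (SD, n = 4), with an unadjusted p of 0.0112 in the quasi-binomial model. Only Control 8 (61.0%) and Control 4 (64.6%) overlapped the Susceptible range of 44.5 to 64.7%. The tile at chr19:55924001-55925000 had 75.0% ± 11.1 (SD, n = 5) and 62.8% ± 7.08 (SD, n = 4), with Control 2 at 57.3% inside the Susceptible range. In Axin2, the tile at chr11:108941001-108942000 had 72.3% ± 10.2 (SD, n = 5) and 55.2% ± 14.7 (SD, n = 4). There Control 8 (89.5%) and Susceptible 7 (33.5%) were the extremes, and the other 7 libraries spanned 59.4 to 73.8%. With 1 library left out, this difference ranged from -20.9 to -9.97 percentage points.

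In Gsk3b the tile at chr16:38110001-38111000 was higher in Susceptible. It read 65.3, 50.6, 55.2, 60.1 and 60.2% in Control 2, 3, 4, 5 and 8, while Susceptible 2, 3, 6 and 7 read 70.5, 62.3, 76.5 and 63.8%. Control 2 alone overlapped the Susceptible range. The difference was 9.99 percentage points (SE 4.10, unadjusted p = 0.0168, adjusted p = 0.997 in the quasi-binomial model). With 1 library left out, its unadjusted p ranged from 0.0126 to 0.0829 in the same model. Outside the start windows the smallest p of Ctnnb1, Dvl1, Dvl2 and Dvl3 were 0.0948, 0.0179, 0.259 and 0.196 unadjusted in that model. The Dvl1 tile, 8098 bp after the start, had 89.8% ± 2.70 (SD, n = 5) and 93.1% ± 1.83 (SD, n = 4).

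**Figure D5:**
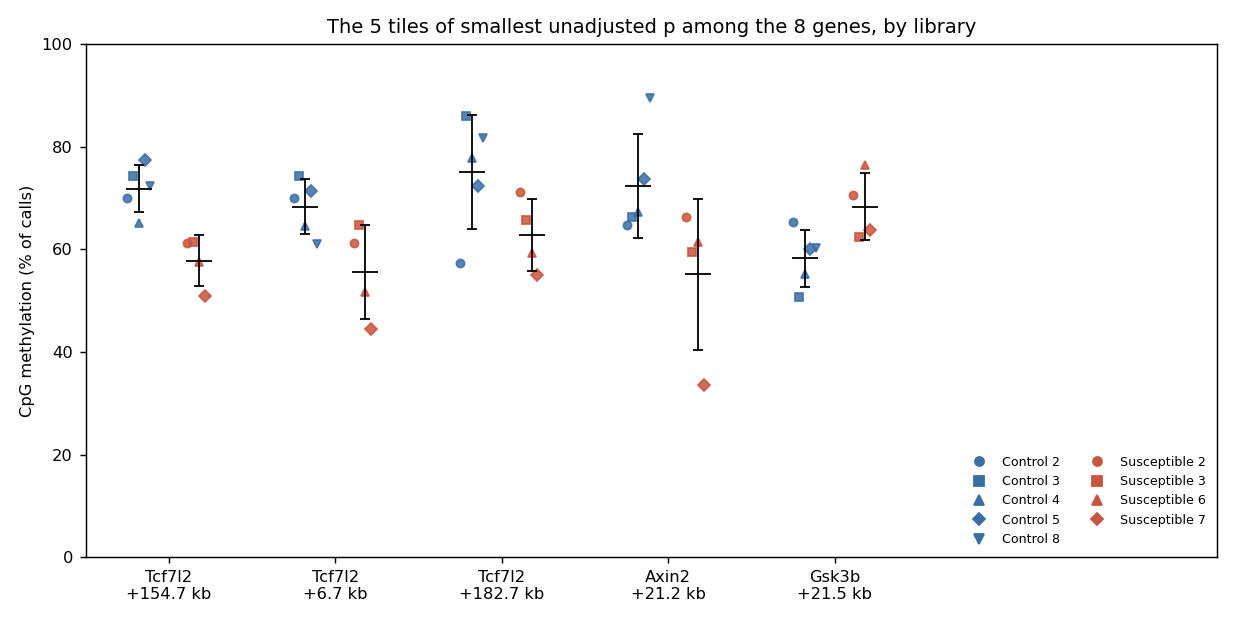
Percent of CpG calls methylated (y axis, from 0) in the 5 member tiles of smallest unadjusted p, named by gene and distance of the tile's middle from the first start, with 1 point per library, group means as horizontal bars and SD as whiskers. In the first tile all Susceptible libraries (50.9 to 61.5%) lie below all Control libraries (65.1 to 77.4%), and in the other 4 the groups overlap.

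The 5 tiles whose groups did not overlap were, besides the Tcf7l2 tile above, 2 more in Tcf7l2 and 1 each in Dvl1 and Gsk3b, a list drawn after the values were seen. In Dvl1, chr4:155852001-155853000 had 87.5% ± 2.79 (SD, n = 5) and 80.1% ± 2.31 (SD, n = 4), on 5 to 7 CpGs. In Tcf7l2, chr19:55766001-55767000 had 92.8% ± 0.869 (SD, n = 5) and 95.9% ± 0.720 (SD, n = 4), and the tile at 55800001 differed by -3.96 percentage points. The Gsk3b tile before the start had 0.822% ± 0.465 (SD, n = 5) and 1.56% ± 0.186 (SD, n = 4). All had an adjusted p of 0.997 in the quasi-binomial model.

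The low tiles outside the start windows mostly lay near starts. Gsk3b read 0.647% in the tile 2499 bp after its start, Axin2 3.01% at 2151 bp and Ctnnb1 13.1% at 3100 bp. The Dvl3 tile of lowest level (1.14%) lay past the gene's end and holds the start of Ap2m1, the next gene. In Dvl1 the lowest tile (39.7%) lay over the gene's end, and overlaps the bounds of Tas1r3, and in Dvl2 it lay 3908 bp after the start (53.9%). These 6 tiles had unadjusted p-values of 0.240 to 0.967 in the quasi-binomial model, and in each the groups overlapped.

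Of the other genes of the pathway, 83 were listed by role, with a listed start for 53. For the others the CpG-richer gene end stood in, a choice that itself favours low levels. The starts of the 83 were mostly low, with 77 of 83 under 20% and a median of 4.86%, against 8.90% over all start windows. Over all genes 17274 of 21631 had a listed start, so the 2 medians are not strictly alike. At the start 0 of 83 passed the adjusted threshold and 2 the unadjusted one, both lower in Susceptible, where 4.85% of all start windows did. These were Apc, the large scaffold of the destruction complex, at 16.5% ± 2.01 (SD, n = 5) and 14.02% ± 2.16 (SD, n = 4), and the ligand gene Wnt3 at 19.7% ± 1.75 (SD, n = 5) and 15.3% ± 3.97 (SD, n = 4). Next by p was Ctnnbip1, which encodes an inhibitor of beta-catenin binding to TCF factors, at 5.10% ± 1.31 (SD, n = 5) and 3.47% ± 0.940 (SD, n = 4). By role, 1 of 19 ligands and 1 of 16 cytoplasmic genes were among them, and 0 of 13 receptors, 9 secretion and agonist genes, 14 antagonists, 8 nuclear genes and 4 targets.

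In the bodies of the pathway genes 0 of 83 passed the adjusted threshold and 5 the unadjusted one, 4 lower and 1 higher, beside 3.83% of all bodies tested, and groups that do not overlap were seen in 1.44% of all. Dkk1, a secreted inhibitor that binds Lrp5 and Lrp6, read 85.4, 83.2, 88.5, 89.0 and 87.9% in Control 2, 3, 4, 5 and 8, while Susceptible 2, 3, 6 and 7 read 77.1, 79.2, 80.1 and 80.5%, so the groups did not overlap. Its difference was -7.56 percentage points (SE 1.32, unadjusted p = 0.00294, adjusted p = 0.99996 in the quasi-binomial model). Rspo2, which encodes an R-spondin that strengthens Wnt signalling, had 71.2% ± 1.56 (SD, n = 5) and 67.6% ± 1.60 (SD, n = 4), also without overlap. Sfrp2, which encodes a secreted Frizzled-related inhibitor, had 88.2% ± 1.67 (SD, n = 5) and 85.3% ± 1.68 (SD, n = 4). The other pair were Wnt2, a ligand gene (2.22 percentage points higher), and Bcl9l, which encodes a beta-catenin co-factor (-1.97). The median difference over the 83 bodies was -0.523 percentage points, with 65 negative and 18 positive, against -0.188 over the 8 members and -0.0654 over all gene bodies tested. Differences were negative in 78.3% of the 83 and in 52.2% of all bodies tested. Susceptible 7, the library of lowest autosomal level (74.5%), was the lowest in 42 of the 83 bodies and in 34.1% of all. Without it, an alternative chosen after seeing the data, 38 of 83 were negative with a median of 0.118 percentage points, against 36.4% and 0.401 over all bodies.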

How the data were processed

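The members, gene lists and tests were chosen with earlier results of these data known. Each library has 1 deposited file, in which, per the file headers, the authors list cytosines of CpGs with a coverage count and the percentages of C and T among them; a methylated count is the count times the deposited percent. Every listed cytosine has at least 10 calls. Bismark, Bowtie and Picard and the build mm10 are named in the submitters' processing notes, without versions or roles. All 396389 listed CpGs within RefSeq promoters of GRCm38.p6 fell on CG in the sequence. In Control 5 and Control 8, 4 and 8 repeated entries were counted once. Strands were added.

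Starts came from the RefSeq promoter table (first listed) for 17274 of 21631 genes, and otherwise from the CpG-richer gene end, as for Axin1. Gene bounds came from the RefSeq gene table of the same build, and exons were not used. Calls were summed over the start with 1 kb on each side, the gene body without the first 1 kb, and 1-kb tiles, and tested where each library had 3 or more CpGs and 20 or more calls. The test was a quasi-binomial logistic model whose dispersion was moderated with limma's formulas (checked against limma 3.58.1, floor 1) and adjusted by Benjamini-Hochberg over all features. It was tested on simulated data. Single values used exact two-sided permutation tests of 5 against 4 libraries (smallest p 0.00794). Calls are reads without molecular identifiers, so depth covers counting error only. Levels of 2 libraries correlated at 0.752 to 0.962 over tiles, and no pair was taken as 1 sample.

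All 8 members were named, with the 5 member tiles of smallest p, each member's tile of smallest p and its lowest tile outside the start window. From the pathway list the 3 smallest p at the start and in the body were named, and for the member of largest body dispersion the 3 genes most like it. Alternatives were other coverage minimums, CpGs listed in all libraries, window sizes, limma on logit values, unmoderated dispersion, a replicate block and each library left out. Python 3.11.15, numpy 2.4.6, pandas 2.3.3 and scipy 1.17.1 were used.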

Additional observations from a re-analysis of the deposited data

Results flagged for a closer look

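In 82 groups of 4 or 5 libraries (start windows, gene bodies, low stretches and named tiles of the 8 genes), 9 held a library whose gap to its neighbour exceeded Dixon's 95% critical share of the group's range. Chance flags about 1 group in 20. Control 5 stood apart at the Dvl1 start (2.61% against 7.40 to 9.35% in the other Control libraries), in the Axin1 body (72.9% against 66.4 to 67.6%), in the low stretch of Axin2 (8341 bp against 3397 to 4452 bp) and in the same measure at the Axin1 end, where the window is methylated and no low stretch exists (457 bp against the 49 bp between neighbouring CpGs). Control 8 stood apart in the Dvl2 tile at 70004001 (32.0% against 54.8 to 60.7%) and in the Dvl3 tile at 20535001 (1.91% against 0.865 to 1.09%). Control 5 and Control 8 are the libraries whose strands disagreed most; the part of this in the values was not tested. Control 2 stood apart in the Gsk3b tile at 38091001 (0.840% against 0 in the other Control libraries). Among the Susceptible libraries, number 2 had the longest low stretch at Ctnnb1 (5449 bp against 4783 to 4844 bp) and number 3 the shortest at Tcf7l2 (2679 bp against 3820 to 3963 bp).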

How the results depend on the processing

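No start window or gene body passed an adjusted p of 0.05 in the quasi-binomial model under any alternative (0 each; 506 to 1215 at an unadjusted p under 0.05). For 1-kb tiles the count was 0, with 0 to 1 when each library was left out in turn (1 without Control 4) and 373 with the replicate block. The numbers pair no libraries by the labels, only 2 and 3 are shared, and same-numbered libraries deviated together at r = 0.0258 and -0.0171, so the paired values are given here only. Differences in percentage points are Susceptible minus Control. Of 41 single values, 21 kept their sign in every setting run, among them the Tcf7l2 tile at 55896001 and the Gsk3b tile at 38110001. Both tiles were picked for their small p in these same libraries, so their kept sign adds no support. For the values whose sign turned, the cause was not tested. With the replicate block the sign turned for the starts of Axin1 (1.11), Axin2 (0.393) and Tcf7l2 (2.29), the bodies of Ctnnb1 (3.05), Dvl2 (-0.240) and Gsk3b (-0.982), and the tiles at 120936001 (-4.17), 155859001 (-3.19), 70004001 (-8.22), 70007001 (-0.733), 20527001 (-0.174), 20535001 (0.211), 38091001 (-0.0399) and 108922001 (-0.595). With the block the Dvl1 start (p = 0.0285) and the bodies of Axin1 (p = 0.0263) and Ctnnb1 (p = 0.0440) passed the unadjusted threshold in the quasi-binomial model. The block uses only Control 2 and 3 and Susceptible 2 and 3, and leaves out the other libraries. No share over all start windows or bodies in that setting stands beside these p-values. With CpGs listed in all 9 libraries the sign turned for the starts of Dvl2 (0.777) and Axin2 (0.409). It also turned for the bodies of Ctnnb1 (0.131) and Dvl1 (0.327) and the tiles at 155859001 (-1.60) and 108922001 (-0.715). With 20 calls per CpG it turned for the Ctnnb1 body (0.599) and the tile at 108922001 (-0.635). With 500 bp on each side the starts of Dvl2 (0.460) and Tcf7l2 (0.709) turned, and with 2 kb those of Dvl2 (6.96) and Axin2 (0.890). With 30% as the end of the low stretch, that of Axin2 turned (420 bp). Without both Control 5 and Control 8, chosen after seeing the data, the starts of Axin2 (0.994) and Tcf7l2 (0.0775), the Ctnnb1 body (1.62), the tiles at 120936001 (-2.59), 155859001 (-1.01), 20535001 (0.0290) and 108922001 (-0.648) and the low stretches of Ctnnb1 (162 bp) and Tcf7l2 (-75.2 bp) turned, and the measure at the Axin1 end, where no low stretch exists, went to 0 bp. Leaving out each library in turn gave ranges across 0 for the starts of Axin2 (-0.628 to 0.672) and Dvl2 (-1.38 to 0.666), the bodies of Ctnnb1 (-0.913 to 1.26) and Dvl1 (-0.998 to 0.381), the tiles at 108922001 (-0.590 to 0.649), 120936001 (-2.65 to 3.56), 155859001 (-1.18 to 2.80), 70004001 (-0.539 to 8.75) and 20535001 (-0.303 to 0.224) and the low stretches of Axin2 (-1104 to 132 bp) and Tcf7l2 (-91.9 to 336 bp), and one that ended at 0 for the Axin1 measure (-102 to 0 bp). The starts of Dvl3 (0.208 to 0.362) and Gsk3b (0.384 to 0.657) kept their sign with each library left out. The Dvl3 start read 0.627 to 1.40% and the Gsk3b start 0.629 to 1.72% over the libraries. How complete the bisulfite conversion was in each library was not tested, so these signs are not read as differences in methylation. Levels near 0 rest on few methylated calls.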
